A study of Bos indicus with 6 samples.

Results

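The mitochondrial carrier family SLC25 was examined in the isthmus of the bovine oviduct. Members were chosen by gene symbol, as SLC25A followed by a number or as UCP1, UCP2 or UCP3. The rule found 47 of 24616 gene rows with 46 symbols, 43 of them SLC25 and 3 UCP, because SLC25A16 has 2 rows. Of these 47 rows, 40 passed the filters on low and unstable values and entered the tests.

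All cows were multiparous, non-lactating Nelore (Bos indicus) whose cycles had first been synchronized with prostaglandin F2α and a GnRH agonist. Ahead of ovulation each received an intravaginal progesterone device of 1 g and 2 mg of estradiol benzoate. LF/LCL cows, steered towards a large preovulatory follicle and a large corpus luteum, were also given prostaglandin F2α at that time, and SF/SCL cows, steered towards a small follicle and a small corpus luteum, were not. The interval between the end of progesterone treatment and GnRH was longer in LF/LCL, at 42 h, than in SF/SCL, at 30 h. Both groups had prostaglandin F2α at the start of this interval and a repeat dose after 6 h. GnRH was given to both groups on day 0 and the tissue was taken on day 4. The question was how the endocrine setting around ovulation relates to gene expression in the oviduct. Sequenced animals were the top-ranked LF/LCL cows and the bottom-ranked SF/SCL cows, so the groups stand for the extremes of the herd and not for its average.

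Most carriers of this family sit in the inner mitochondrial membrane and move nucleotides, phosphate, keto acids, amino acids, acylcarnitines, cofactors and metal ions between cytosol and matrix. The uncoupling protein UCP1 lets protons back into the matrix and makes heat in brown fat, while UCP2 is found in many tissues. In the oviduct isthmus, a thick smooth muscle coat surrounds an epithelium of ciliated and secretory cells, and these cell types differ in how they make and use ATP.

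RNA was sequenced from the frozen oviduct wall on the side of the corpus luteum. The libraries held 25652651, 28659214 and 29836083 counted reads in LF/LCL cows 617, 79 and 527 and 34193164, 23899117 and 25472906 in SF/SCL cows 856, 97 and 489215. Values for single cows are given below in this order within each group. They are normalized counts, reads per gene divided by a size factor for the library, and are not scaled for gene length, so they compare cows for a gene and not levels between genes; the gene with the most reads in a list is named without such a comparison. Each group had 3 cows, which are separate animals.

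SF/SCL cow 489215 stood apart from the other 5 cows. Its normalized counts summed to 33913666 over all genes, against 25901138 to 26900121 in the others. In a fit with a weight for each library, its weight was 0.0477, whereas the others had weights of 1.06 to 4.26. Many results that rest on this cow are given with and without it. The summed smooth muscle markers also separated it from the other SF/SCL cows. The 7 markers found summed to 832284, 770138 and 712920 in LF/LCL and to 332940, 390648 and 1203034 in SF/SCL, with the most reads from ACTA2, smooth muscle actin. None of the 7 was at 0. OVGP1, the main secretory glycoprotein of the oviduct epithelium, had normalized counts of 287, 1782 and 1950 in LF/LCL and of 271794, 325158 and 730 in SF/SCL. Cow 489215 was thus above the LF/LCL cows in this sum, though not in each muscle marker, and its OVGP1 value was nearer to theirs than to those of cows 856 and 97. In these bulk samples, fewer cells of a type and less RNA per cell cannot be told apart.

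UCP2 was the member with the smallest p-value, and it was higher in each SF/SCL cow than in each LF/LCL cow. Its protein is an uncoupling protein homologue that is reported to carry small dicarboxylates and to limit the oxidation of glucose carbon. UCP2 (ENSBTAG00000003692) had normalized counts of 2547, 1833 and 2074 in LF/LCL and of 5108, 4649 and 4348 in SF/SCL. The groups did not overlap, and the lowest SF/SCL cow, 489215, lay well above the highest LF/LCL cow, 617. Means were 2151 ± 363 in LF/LCL and 4702 ± 383 in SF/SCL (SD), a 2.19-fold difference. The log2 fold change was 1.14 (SE 0.19), with an unadjusted limma p of 0.000603 and a limma Benjamini-Hochberg adjusted p of 0.351. By limma the difference therefore did not pass the threshold over all genes. With DESeq2 on the recovered reads it did, at a Benjamini-Hochberg adjusted p of 0.000161, and with edgeR it did not, at 0.321. Without cow 489215 the log2 fold change was 1.19 and the limma Benjamini-Hochberg adjusted p 0.00526. Over all alternatives, leaving out each cow included, the log2 fold change was 1.03 to 1.27 and the adjusted p 0.000161 to 0.999.

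Some epithelial markers were higher in SF/SCL, as UCP2 was, and with all cows limma passed none of them at an adjusted p of 0.05. DESeq2 passed 3, as it did UCP2 and 2.66% of all genes, with Benjamini-Hochberg adjusted p-values of 0.0035 for TPPP3, 0.0198 for DNAI1 and 0.027 for EPCAM. Of 8 ciliated cell markers, 7 were tested, 6 had a log2 fold change above 0 and 3 of these had an unadjusted limma p under 0.05, namely TPPP3, DNAI1 and CCDC39, against 4.19% of all genes. Without cow 489215, 6 of the 7 were higher in SF/SCL at a limma adjusted p under 0.05, against 10.3% of all genes in that fit. The summed level of this list was 44849, 40452 and 33846 in LF/LCL and 63415, 67068 and 43370 in SF/SCL. Most reads came from CAPS, and PIFO was at 0 in each library. CAPS had the only log2 fold change below 0 among the 7 tested, at -0.06, and its groups overlapped. TPPP3, a microtubule protein of ciliated cells, had values of 11024, 9820 and 7552 in LF/LCL and of 19670, 18906 and 17185 in SF/SCL. Like UCP2, TPPP3 was higher in all 3 SF/SCL cows, whereas the ciliary regulator FOXJ1 was lower in cow 489215, at 2609, than in the other 5 cows, at 3436 to 12042. The same held for DNAH5, a dynein of cilia, at 626 in cow 489215 and 2206 to 10273 in the others. As deposited, this cow was the lowest in 2 of the 7 tested ciliated markers, against 35.7% of all genes. Relative to the library total it was the lowest in 5, against 47.7%, and the highest in 0. Of 7 secretory and general epithelial markers found, 6 were tested and 5 had a log2 fold change above 0. At an unadjusted limma p under 0.05, 3 were higher in SF/SCL, against 4.19% of all genes. These were the epithelial adhesion gene EPCAM and the keratins KRT8 and KRT18. Without cow 489215, 3 of the 6 passed a limma adjusted p under 0.05 in favour of SF/SCL, PAX8, EPCAM and KRT8, against 10.3% of all genes. Cow 489215 was the highest in 4 of the 6 tested, EPCAM, KRT8, KRT19 and CLDN4, against 36.7% of all genes. It was the lowest in 1, PAX8, a transcription factor of secretory cells, at 469 against 503 to 1441. Relative to the library total, this cow was the highest in 2 of the 6, against 22.2% of all genes. This list summed to 36824, 28013 and 25821 in LF/LCL and to 312059, 373019 and 56378 in SF/SCL, most of it OVGP1 in cows 856 and 97, and none of its genes was at 0 throughout. Leukocytes also express UCP2, and their 10 markers summed to 5446, 6425 and 7100 in LF/LCL and to 8653, 6194 and 4733 in SF/SCL, with the most reads from LCP1. Of the 9 tested leukocyte markers, 2 had a log2 fold change above 0, with a median of -0.33. Without cow 489215, 4 of the 9 were above 0, with a median of -0.07. That cow had the lowest leukocyte sum. The part of these cell types in the UCP2 result was not tested.

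Counts over the family are as follows. No member passed an adjusted limma p of 0.05, and over all 15387 genes tested the share was 0%, with 0 genes called. At an unadjusted limma p under 0.05, 1 of 40 members, SLC25A53, was higher in LF/LCL, against 4.48% of all genes, and 1, UCP2, was higher in SF/SCL, against 4.19%. DESeq2 called 1 member at an adjusted p under 0.05, UCP2, and 2.66% of all genes, while edgeR called 0 of either. Groups did not overlap for 4 members higher in LF/LCL, 10% of those tested, against 8.6% of all genes, and for 3 members higher in SF/SCL, 7.5%, against 9.51%. All these shares are near or below those over all genes, so the counts are not a result about the family. Across the 40 members, the median log2 fold change was 0.08, against -0.02 over all genes, with 27 members above 0, and it was -0.01 when values were scaled to the library total. Without cow 489215 the median was -0.07, with 25 members below 0, so the sign of the median rests on that cow.

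**Figure D1:**
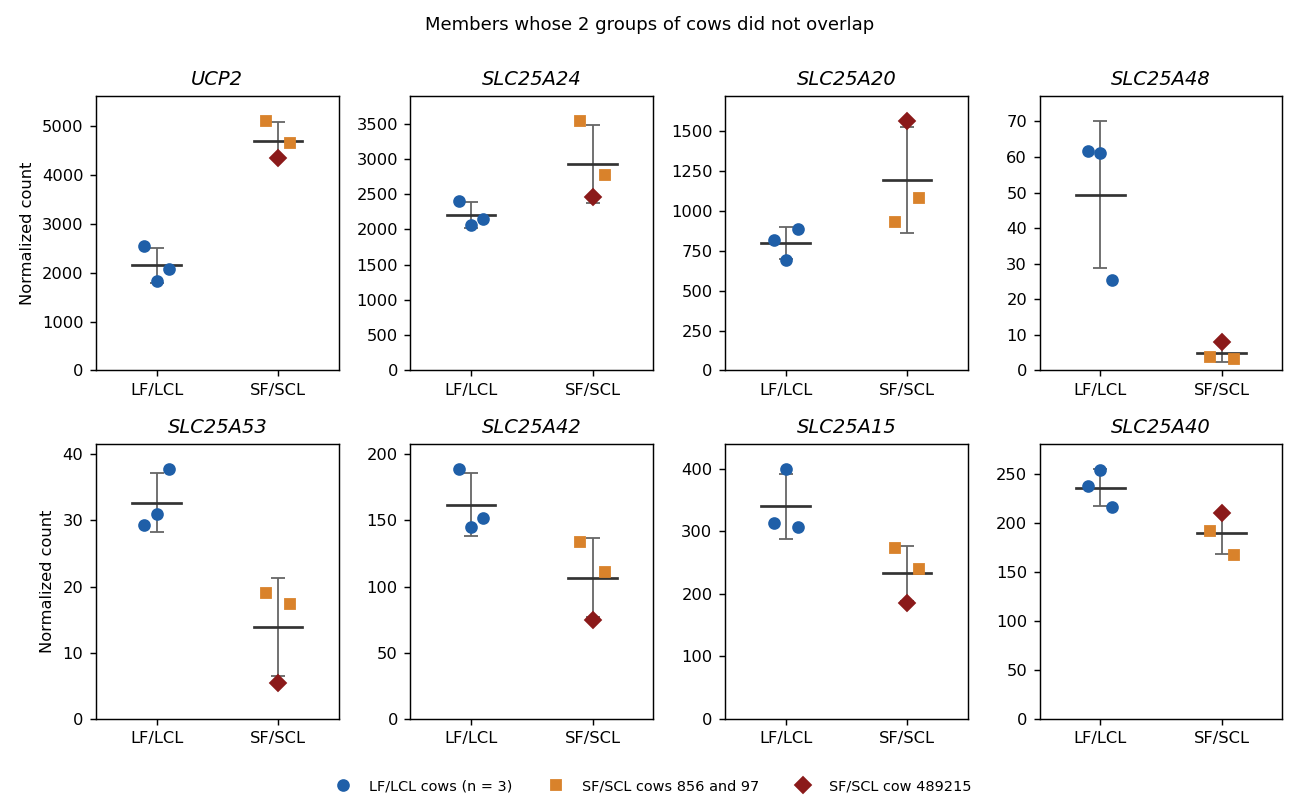
Normalized counts of the 8 members whose groups did not overlap, with a point for each cow, the group mean as a horizontal line and 1 SD as the error bar (3 cows per group; linear axes from 0). UCP2, SLC25A24 and SLC25A20 were higher in SF/SCL, the other 5 in LF/LCL, and the position of cow 489215 within its group differs between genes.

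The other members that were higher in SF/SCL without overlap were SLC25A24 and SLC25A20. SLC25A24, a calcium-regulated exchanger of ATP-Mg for phosphate that sets the adenine nucleotide content of the matrix, had normalized counts of 2404, 2056 and 2145 in LF/LCL and of 3540, 2774 and 2463 in SF/SCL. Cow 856 was the highest and cow 489215 was just above LF/LCL cow 617, an order that turned to overlap when values were rescaled by TMM or by the library total. The log2 fold change was 0.40 (SE 0.19) with a limma Benjamini-Hochberg adjusted p of 0.647, and without cow 489215 it was 0.51 with a limma adjusted p of 0.0437. SLC25A20, the carnitine-acylcarnitine carrier that brings long-chain fatty acids into the matrix for oxidation, had values of 818, 690 and 888 in LF/LCL and of 930, 1082 and 1564 in SF/SCL. Here cow 489215 was the highest, and cow 856 lay close to LF/LCL cow 527. Its log2 fold change was 0.55 (SE 0.25) with an unadjusted limma p of 0.0691, and 0.34 without cow 489215, with a limma Benjamini-Hochberg adjusted p of 0.163.

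Genes that work beside SLC25A20 were read from a list of fatty acid entry and oxidation genes, of which 9 were tested. At an unadjusted limma p under 0.05, 1 of them was higher in SF/SCL, against 4.19% of all genes, and 0 in LF/LCL, against 4.48%. That gene was CPT1B, which makes acylcarnitines at the outer membrane in muscle and other tissues. CPT1B had normalized counts of 944, 715 and 631 in LF/LCL and of 2898, 2721 and 1049 in SF/SCL. The groups did not overlap, with cows 856 and 97 far above the rest and cow 489215 just above LF/LCL cow 617. The log2 fold change was 1.43 (SE 0.42), with an unadjusted limma p of 0.0135 and a Benjamini-Hochberg adjusted p of 0.433, and without cow 489215 it was 1.90 with a limma adjusted p of 0.00261. With all cows DESeq2 gave a Benjamini-Hochberg adjusted p of 0.0297 and edgeR 0.382. CPT1A, the form found in liver and many other tissues, had values of 1002, 1020 and 1217 in LF/LCL and of 1527, 1806 and 354 in SF/SCL, so cow 489215 was the lowest of the 6 and the groups overlapped. The downstream genes CPT2, HADHA and HADHB had log2 fold changes of -0.02, 0.12 and 0.12, and of -0.10, -0.05 and -0.17 without cow 489215, so that HADHA and HADHB turned sign. ACADM, medium-chain acyl-CoA dehydrogenase, passed the threshold in favour of LF/LCL without cow 489215 but not with all cows, at a log2 fold change of -0.60 and a limma Benjamini-Hochberg adjusted p of 0.0227.

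Members that were higher in LF/LCL without overlap were SLC25A53, SLC25A42, SLC25A15, SLC25A40 and, outside the tested genes, SLC25A48. SLC25A53 is a little-studied carrier of unsettled substrate with few reads. Its normalized counts were 29.3, 31 and 37.8 in LF/LCL and 19, 17.3 and 5.33 in SF/SCL. Cow 489215 was the lowest, with 4 reads. The log2 fold change was -1.34 (SE 0.56), with an unadjusted limma p of 0.0493 and a Benjamini-Hochberg adjusted p of 0.577. Without cow 489215 it was -0.81 with a limma adjusted p of 0.178.

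SLC25A48, linked in other work to the entry of choline into mitochondria, had values of 61.8, 61 and 25.5 in LF/LCL and of 3.8, 3.25 and 7.99 in SF/SCL. All SF/SCL cows were below all LF/LCL cows, and the LF/LCL mean was 9.86 times that of SF/SCL, on 3 to 65 reads per library. It failed the filter because its standard deviation exceeded its mean, and was fitted when the filter used the mean alone. Then the log2 fold change was -3.04 (SE 0.58), with an unadjusted limma p of 0.00154 and a Benjamini-Hochberg adjusted p of 0.369. Without cow 489215 it passed the filter, at a log2 fold change of -3.38 and a limma Benjamini-Hochberg adjusted p of 0.0107. Its SF/SCL mean was then 3.52, so it entered that fit only through the group in which it was high. Among the members it thus had the largest fold between group means, carried by few reads.

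SLC25A42 carries coenzyme A into the matrix. It had normalized counts of 189, 145 and 152 in LF/LCL and of 134, 111 and 74.6 in SF/SCL, with cow 489215 the lowest and cow 856 close to LF/LCL cow 79. SLC25A15, the ornithine-citrulline exchanger of the urea cycle and polyamine pathways, had values of 314, 400 and 307 in LF/LCL and of 273, 240 and 185 in SF/SCL. Here too cow 489215 was the lowest of the 6. SLC25A40, which carries glutathione into mitochondria, had values of 238, 254 and 216 in LF/LCL and of 192, 167 and 210 in SF/SCL, so the groups were barely separate. The log2 fold changes of SLC25A42, SLC25A15 and SLC25A40 were -0.64 (SE 0.33), -0.55 (SE 0.27) and -0.32 (SE 0.25). Their unadjusted limma p-values were 0.101, 0.0785 and 0.246. Without cow 489215 the log2 fold changes were -0.40, -0.40 and -0.39.

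The carriers of ATP, ADP and phosphate did not separate the groups, but set cow 489215 apart. SLC25A4 is the ADP/ATP carrier of muscle and heart, SLC25A5 and SLC25A6 are its forms in other tissues and SLC25A31 is the germ-cell form, while SLC25A3 brings in the phosphate for ATP synthesis. SLC25A4 (ENSBTAG00000013208) had normalized counts of 4623, 4396 and 3205 in LF/LCL and of 2175, 2006 and 6626 in SF/SCL. Cows 856 and 97 were the lowest and cow 489215 was the highest of the 6. With all cows its log2 fold change was -0.39 (SE 0.48), with a limma Benjamini-Hochberg adjusted p of 0.882, and without cow 489215 it was -0.95, with a limma adjusted p of 0.0145. SLC25A3 (ENSBTAG00000012890) had values of 7918, 7333 and 6994 in LF/LCL and of 5395, 5801 and 14859 in SF/SCL, again highest in cow 489215 and lowest in cows 856 and 97. Its log2 fold change was 0.07 (SE 0.40) with a limma Benjamini-Hochberg adjusted p of 0.976, and -0.02 when scaled to the library total. Without cow 489215 it was -0.40 with a limma Benjamini-Hochberg adjusted p of 0.0313, so the direction turned.

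SLC25A5 was not low in cows 856 and 97. It had normalized counts of 1924, 1455 and 1342 in LF/LCL and of 1509, 1674 and 2739 in SF/SCL, so these 2 cows were within the LF/LCL range and cow 489215 was again the highest. Its log2 fold change was 0.29 (SE 0.28), and 0.03 without cow 489215. SLC25A31 had values of 0, 1.88 and 1.76 in LF/LCL and of 1.52, 2.17 and 0 in SF/SCL, at most 2 reads in a library. SLC25A6 had 0 reads in all 6 libraries, which leaves up to 3 reads per library possible. The ADP/ATP carriers are close copies of each other, and reads that map to several places were not counted, so their levels are uncertain.

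Some smooth muscle markers showed the pattern of SLC25A4 and SLC25A3. Of 8 listed, 7 were tested, and all 7 had a log2 fold change below 0; 1, SYNPO2, had an unadjusted limma p under 0.05, against 4.48% of all genes. Cow 489215 was the highest in 4 of the 7, ACTA2, CNN1, DES and TAGLN, against 36.7% of all genes. It was the lowest in 1, against 35.7%. Without cow 489215, 5 of the 7 were lower in SF/SCL at a limma adjusted p under 0.05, against 7.92% of all genes in that fit. TAGLN, an actin-binding protein of smooth muscle, had values of 148702, 131622 and 109598 in LF/LCL and of 57841, 54053 and 270402 in SF/SCL. As for SLC25A4, cow 489215 was the highest and cows 856 and 97 the lowest. MYH11, the smooth muscle myosin heavy chain, did not show that peak, at 157535, 137623 and 191119 in LF/LCL and 82654, 122911 and 116653 in SF/SCL. LMOD1 in cow 489215, at 10359, lay within the LF/LCL range, and SYNPO2, at 9453, was lower than in the other 5 cows, at 12069 to 32631. The summed levels of the whole list in each cow are given above, and its part in the SLC25A4 and SLC25A3 results was not tested.

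**Figure D2:**
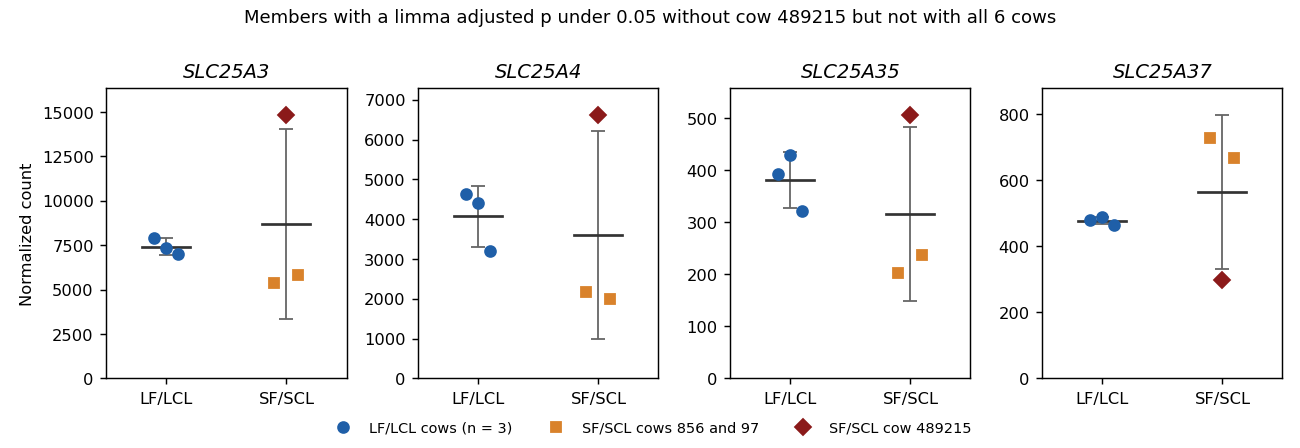
Normalized counts of SLC25A3, SLC25A4, SLC25A35 and SLC25A37 by cow, with the group mean as a horizontal line and 1 SD as the error bar (3 cows per group; linear axes from 0). Shown are the members that passed a limma adjusted p of 0.05 without cow 489215 and whose groups overlapped with all cows. Cows 856 and 97 were below the LF/LCL cows for the first 3 genes and above them for SLC25A37. Cow 489215 was on the opposite side in all 4, which follows largely from this choice of genes. UCP2, SLC25A24 and SLC25A48 also passed without that cow and are not shown here. In them cow 489215 lay on the same side of the LF/LCL cows as cows 856 and 97.

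Without cow 489215, 15495 genes were tested and the fit compares 3 LF/LCL cows with SF/SCL cows 856 and 97. At a limma adjusted p under 0.05, 4 of 40 members were then higher in LF/LCL, SLC25A3, SLC25A4, SLC25A35 and SLC25A48, or 10%, against 7.92% of all genes, with SLC25A48 tested only through its LF/LCL values. In the other direction 3 members were higher in SF/SCL, UCP2, SLC25A24 and SLC25A37, or 7.5%, against 10.3%. These shares are again close to those over all genes. SLC25A35, a carrier of unsettled substrate, had normalized counts of 392, 429 and 322 in LF/LCL and of 203, 237 and 507 in SF/SCL. SLC25A37, mitoferrin 1, brings iron into mitochondria for heme and iron-sulfur clusters. Its values were 481, 488 and 466 in LF/LCL and 730, 669 and 297 in SF/SCL, so cows 856 and 97 were above and cow 489215 was below a narrow LF/LCL range. Log2 fold changes without cow 489215 were -0.78 for SLC25A35 and 0.54 for SLC25A37, with limma Benjamini-Hochberg adjusted p-values of 0.0344 and 0.026. With all 6 cows they were -0.38 and 0.13, with limma adjusted p-values of 0.861 and 0.948.

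**Figure D3:**
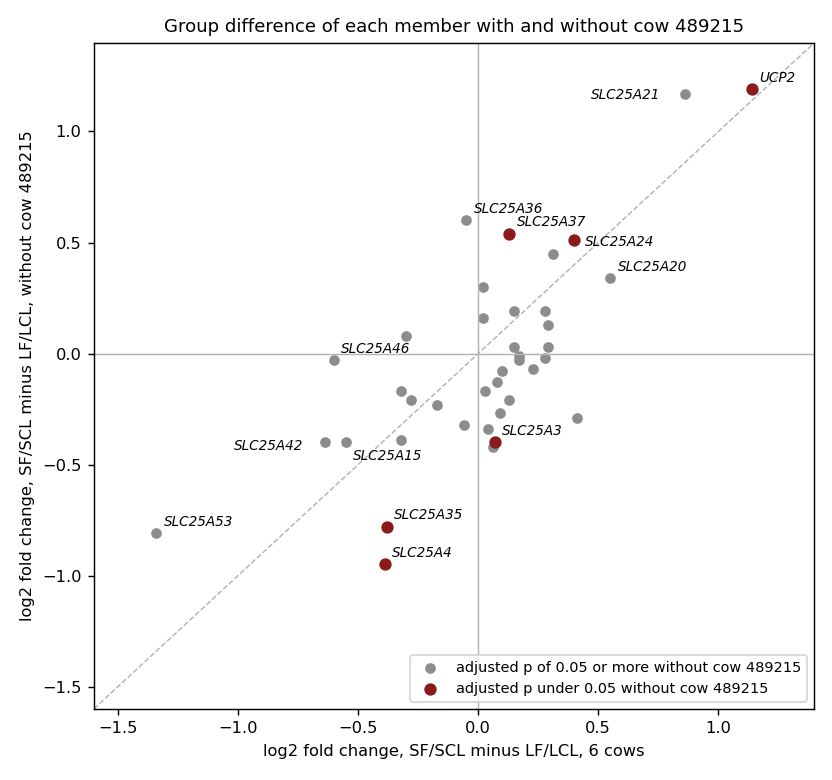
Log2 fold change (SF/SCL minus LF/LCL) of the members fitted both ways, with all 6 cows on the horizontal axis and without cow 489215 on the vertical axis; the dashed line marks equal values, and the 2 fits share 5 cows. UCP2 was at 1.14 and 1.19, while SLC25A3 lay above 0 with cow 489215 and below 0 without it.

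Across the family, cow 489215 was more often above the other 5 cows than below them. It had the highest value in 22 of the 40 tested members, 55%, against 36.7% of all genes, and the lowest in 11, 27.5%, against 35.7%. This depends on scaling: relative to the library total, it was the highest in 15 members, 37.5% against 22.2%, and the lowest in 14, 35% against 47.7%. The median ratio of this cow to the median of the other 5 was 1.39 over the members and 1.02 over all genes. The 44 tested genes of the other mitochondrial lists, given below, were close to the members, so this was not particular to the carriers. Cow 489215 was the highest in 52.3% of them and the lowest in 27.3%, with a median ratio of 1.34. Relative to the library total these shares were 36.4% and 34.1%. Reads of the family made up 0.173%, 0.163% and 0.161% of all counted reads in LF/LCL and 0.169%, 0.164% and 0.2% in SF/SCL. Cow 489215 thus had the largest share of reads on these genes, and the other 5 cows differed little.

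**Figure D4:**
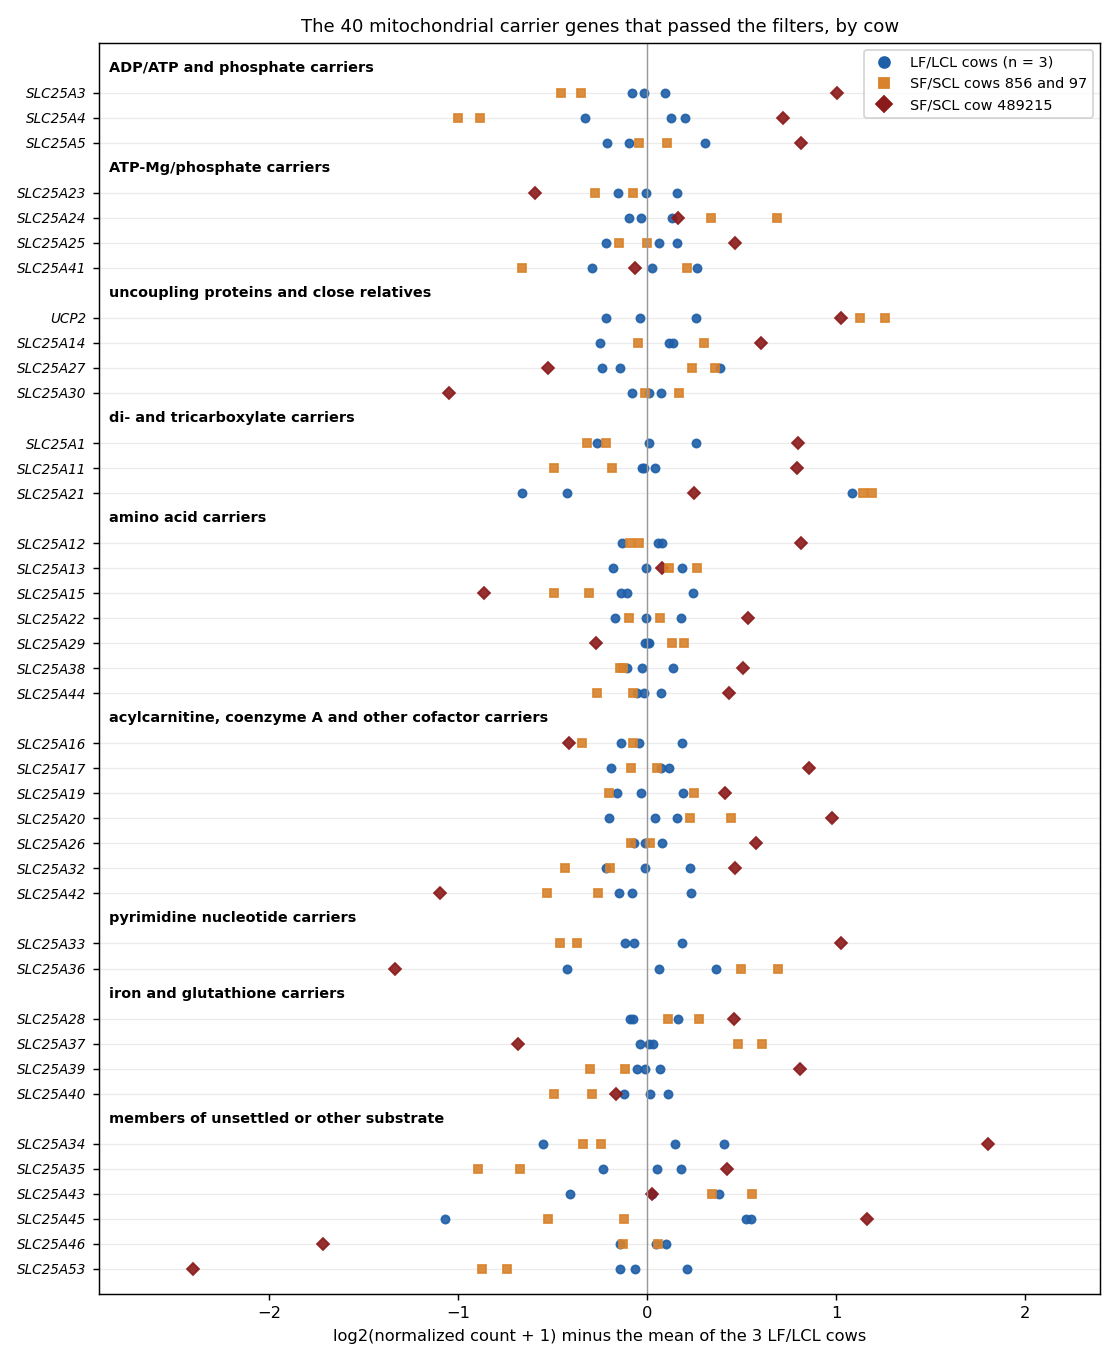
All 40 tested members by substrate class, with each cow's log2(normalized count + 1) relative to the mean of the 3 LF/LCL cows on the horizontal axis and each point a cow. Points of cow 489215 lie farthest right in 22 members and farthest left in 11, and UCP2 is the gene in which the SF/SCL cows lie together near 1.

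Of the 8 members with the highest mean counts, all but UCP2 and SLC25A24 were highest in cow 489215, against 36.7% of all genes. SLC25A11, the oxoglutarate carrier of the malate-aspartate shuttle, had normalized counts of 2625, 2514 and 2502 in LF/LCL and of 1810, 2236 and 4409 in SF/SCL. SLC25A1, the citrate carrier that feeds cytosolic lipid synthesis, had values of 1746, 2072 and 1442 in LF/LCL and of 1493, 1393 and 3022 in SF/SCL. For SLC25A11, cows 856 and 97 were below each LF/LCL cow, whereas for SLC25A1 they overlapped with LF/LCL. SLC25A17, which carries coenzyme A and related cofactors into peroxisomes, had values of 2298, 2368 and 1908 in LF/LCL and of 2261, 2058 and 3957 in SF/SCL, and cow 489215 stood alone above the rest. SLC25A39, a glutathione carrier of mitochondria, had values of 3729, 3418 and 3520 in LF/LCL and of 3272, 2877 and 6236 in SF/SCL, with cows 856 and 97 below the LF/LCL cows. With all cows the log2 fold changes of SLC25A11, SLC25A1, SLC25A17 and SLC25A39 were 0.04, 0.09, 0.28 and 0.13, and none passed the limma threshold. Without cow 489215 they were -0.34, -0.27, -0.02 and -0.21, each with the sign turned, and under scaling to the library total that of SLC25A11 was -0.05 and that of SLC25A1 just below 0.

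By substrate class, all 3 tested ADP/ATP and phosphate carriers were highest in cow 489215, as were 2 of 3 di- and tricarboxylate carriers. The exception, SLC25A21, an oxodicarboxylate carrier, had values between 15.8 and 59.6 and varied as much within LF/LCL as between groups. Among amino acid carriers, cow 489215 was highest in 4 of 7 and lowest in 2. Here SLC25A12, an aspartate-glutamate carrier of the malate-aspartate shuttle, stood at 2515 in cow 489215 and at 1307 to 1510 in the others, whereas SLC25A13, its counterpart in liver, lay at 539 in cow 489215 and at 451 to 614 in the others. In the class of acylcarnitine, coenzyme A and other cofactor carriers, cow 489215 was highest in 5 of 7 and lowest in 2, SLC25A16 and SLC25A42. Relative to the library total, it was highest in 3 of these 7 and in 3 of the 7 amino acid carriers. Over all genes it was highest in 36.7% as deposited and in 22.2% relative to the library total. Of 4 ATP-Mg/phosphate carriers, 1 was highest and 1 lowest in this cow, and relative to the library total 0 were highest and 2 lowest. For the uncoupling proteins and close relatives, 4 of 6 were tested, with cow 489215 the highest in SLC25A14 and the lowest in SLC25A27 and SLC25A30. Relative to the library total, it was the highest in 0 of these. The pyrimidine nucleotide carriers were split: SLC25A33 was at 957 in cow 489215 and at 341 to 534 in the others, and SLC25A36 was at 463 and at 872 to 1897.

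Among the iron and glutathione carriers, cow 489215 was highest in 2 of 4, SLC25A28 and SLC25A39, and lowest in 1, SLC25A37. Relative to the library total, it was highest in 1 of the 4 and lowest in 2. SLC25A28, mitoferrin 2, differs from mitoferrin 1 in being expressed in most tissues. In the remaining class, of unsettled or other substrate, this cow was highest in 3 of 6 and lowest in 2. Relative to the library total, both counts were 2. SLC25A34 was at 192 in cow 489215 and at 36.6 to 72 in the others, or 4.21 times their median. SLC25A46, an outer membrane member of the family that acts in mitochondrial fission and lipid handling, was at 193 in cow 489215 and at 576 to 683 in the others. The median of the other 5 was 3.41 times the value of cow 489215. Members of the same family thus stood at opposite ends in this cow. The 24 tested members not given cow by cow had log2 fold changes of -0.60 to 0.86, 17 of them above 0, and the smallest unadjusted limma p among them was 0.191. Without cow 489215, 23 of them were fitted, with log2 fold changes of -0.42 to 1.17 and 10 above 0.

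Members outside the tests had few reads. UCP1 had values of 0, 0.939 and 0 in LF/LCL and of 0, 0 and 1.33 in SF/SCL, at most 1 read in a library. UCP3, the form of skeletal muscle, had values of 0, 0 and 0.878 in LF/LCL and of 2.28, 0 and 2.66 in SF/SCL, at most 3 reads. Both were at or under the limit of 3 reads that a count of 0 leaves possible, so no fold is given. SLC25A47, a carrier known mainly from liver, had between 2 and 10 reads, and the second SLC25A16 row (ENSBTAG00000048196) had 0 reads in all libraries, and the first had 239 to 530. Markers of fat and skeletal muscle, in which UCP1 and UCP3 are usually found, did not all lie near 0. Of 5 adipocyte markers found, with the most reads from PPARG, the sums were 193, 214 and 248 in LF/LCL and 323, 238 and 305 in SF/SCL, and CIDEC had values of 0 to 2.28. Of 9 rows of skeletal muscle markers, with the most reads from ACTA1, the sums were 1234, 2087 and 3436 in LF/LCL and 1328, 1372 and 5793 in SF/SCL. The fast myosin genes MYH1 and MYH2 and the light chain MYLPF had values of 0 to 6.5, whereas the 2 rows of the slow myosin gene MYH7 had 21.3 to 154 and titin, TTN, had 29.3 to 171. CKM, muscle creatine kinase, had values of 3.14, 6.57 and 8.78 in LF/LCL and of 16, 20.6 and 20 in SF/SCL, without overlap, at an unadjusted limma p of 0.0183. Of the 6 tested rows of this list, 3 had a log2 fold change above 0 and 3 below, with a median of -0.08. Erythroid markers, in which SLC25A37 is usually prominent, summed to 14, 18 and 7 in LF/LCL and to 11, 21 and 27 in SF/SCL over 6 rows, with the most reads from AHSP, and the hemoglobin gene HBB had values of 0 to 2.66.

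A RefSeq gene table of a Bos indicus assembly (NIAB-ARS_B.indTharparkar_mat_pri_1.0), which is not the assembly the reads were mapped to, held 44 of the 46 symbols. There, 4 pairs of members had 0 other protein-coding genes between them, UCP2 with UCP3, SLC25A29 with SLC25A47, SLC25A23 with SLC25A41, and SLC25A43 with SLC25A5.

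The other mitochondrial lists held 44 tested genes, and 2 of them were higher in SF/SCL at an unadjusted limma p under 0.05 and 0 in LF/LCL, against the 4.19% and 4.48% of all genes. These were CPT1B and SFXN5. SFXN5, a sideroflexin and so a member of another family of mitochondrial transporters, had normalized counts of 302, 260 and 292 in LF/LCL and of 446, 426 and 410 in SF/SCL. The groups did not overlap, and cow 489215 lay with the other SF/SCL cows, as for UCP2. The log2 fold change was 0.59 (SE 0.21), with an unadjusted limma p of 0.0289 and a Benjamini-Hochberg adjusted p of 0.501. Under scaling to the library total it was 0.50, and the unadjusted limma p of 0.0803 was no longer under 0.05. With all cows limma and edgeR passed 0 genes of these lists at an adjusted p under 0.05, and DESeq2 passed 1, CPT1B, against 2.66% of all genes.

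MPC1 and MPC2 form the mitochondrial pyruvate carrier, which is not part of the SLC25 family. MPC1 had normalized counts of 1343, 1474 and 953 in LF/LCL and of 699, 598 and 2643 in SF/SCL, highest in cow 489215 and lowest in cows 856 and 97, as for SLC25A4. MPC2 had values of 1385, 1212 and 1166 in LF/LCL and of 952, 1126 and 2392 in SF/SCL, with the same cows highest and lowest. Their log2 fold changes were -0.26 (SE 0.58) and 0.13 (SE 0.36). Without cow 489215 they were -0.93 and -0.27, with limma Benjamini-Hochberg adjusted p-values of 0.0256 and 0.187, and the sign of MPC2 turned.

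The 4 outer membrane genes tested were all highest in cow 489215, against 36.7% of all genes. Relative to the library total they were too, against 22.2%. VDAC1 and VDAC2 encode the pores through which metabolites reach the carriers, and MTCH1 and MTCH2 are carrier-like proteins of the outer membrane. VDAC1 had values of 4502, 3736 and 4054 in LF/LCL and of 3164, 3278 and 6452 in SF/SCL, and VDAC2 had 3177, 2338 and 2848 in LF/LCL and 1702, 2166 and 4656 in SF/SCL. For both, cows 856 and 97 were below the LF/LCL cows. MTCH1 had values of 20293, 20762 and 16482 in LF/LCL and of 21685, 15276 and 33633 in SF/SCL. MTCH2 had values of 2333, 2163 and 1962 in LF/LCL and of 1907, 1958 and 3782 in SF/SCL. MTCH1 in cow 856 was above all LF/LCL cows, whereas for MTCH2 cows 856 and 97 were just below them. Log2 fold changes of VDAC1, VDAC2, MTCH1 and MTCH2 were -0.01, -0.10, 0.23 and 0.17. Without cow 489215 they were -0.34, -0.53, -0.07 and -0.15, with the sign of MTCH1 and MTCH2 turned, and none passed the limma threshold either way.

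Import genes repeated the pattern in part, and the calcium counts were near the shares over all genes. Cow 489215 was the highest in 6 of 8 tested genes that bring carriers to the inner membrane, 75% against 36.7% of all genes, and the lowest in 1, AGK. TOMM20, an import receptor of the outer membrane, was at 12284 in cow 489215 and at 4437 to 5717 in the others. Among 7 genes of the calcium uniporter list, cow 489215 was the highest in 3 and the lowest in 3. Each is 42.9%, against 36.7% and 35.7% of all genes. None of the 7 had an unadjusted limma p under 0.05.

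Of 9 tested regulators of mitochondrial gene expression, cow 489215 was the lowest in 6, 66.7% against 35.7% of all genes, and the highest in 1, the nuclear receptor ESRRA. Relative to the library total it was the lowest in 7, 77.8% against 47.7%, and the highest in 0. All 9 had a log2 fold change below 0, with a median of -0.34, and none had an unadjusted limma p under 0.05. Without cow 489215 the median was -0.02 and 5 of the 9 were below 0. NRF1, a transcription factor of nuclear genes for mitochondrial proteins, had normalized counts of 264, 264 and 284 in LF/LCL and of 337, 333 and 93.2 in SF/SCL. PPARGC1B, a coactivator of the PGC-1 family, had values of 128, 92 and 121 in LF/LCL and of 153, 220 and 14.6 in SF/SCL. PPARGC1A, the coactivator PGC-1 alpha, did not follow them, at 723, 893 and 827 in LF/LCL and 389, 457 and 880 in SF/SCL. ESRRG, an estrogen-related receptor that failed the filter, stood at 64.6 and 71.5 in cows 856 and 97 and at 0 to 9.66 in the other 4 cows. Cows 856 and 97 were below the LF/LCL cows for PPARGC1A, as for SLC25A4, and cow 489215 was within the LF/LCL range. Its log2 fold change was -0.59 (SE 0.34) with a limma Benjamini-Hochberg adjusted p of 0.722, and without cow 489215 it was -0.94 with a limma adjusted p of 0.00984. Without that cow, limma passed 5 of the 44 genes in favour of LF/LCL, PPARGC1A, MPC1, ACADM, SFXN3 and CCDC109B, against 7.92% of all genes. In favour of SF/SCL it passed 3, CPT1B, CPT1A and SFXN5, against 10.3%.

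**Figure D5:**
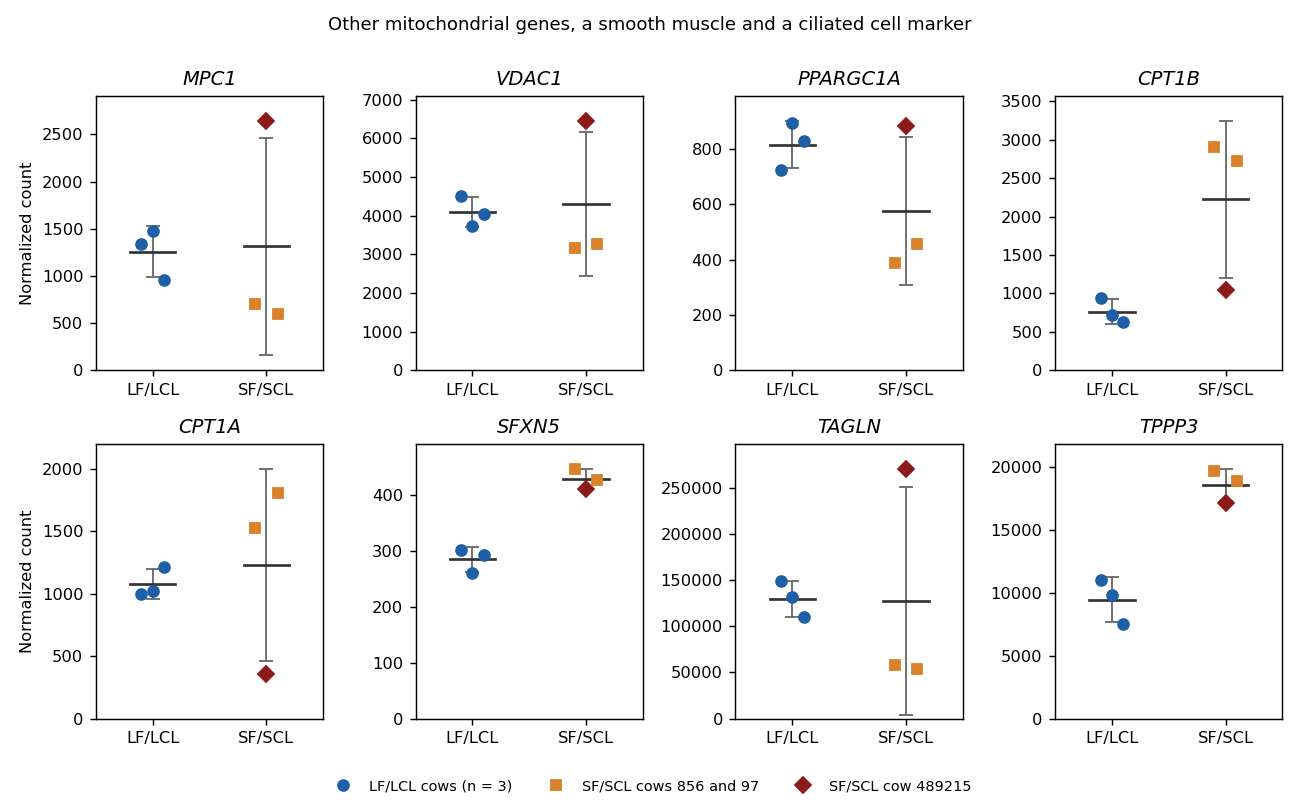
Normalized counts by cow of 6 other mitochondrial genes, the smooth muscle marker TAGLN and the ciliated cell marker TPPP3, with the group mean as a horizontal line and 1 SD as the error bar (3 cows per group; linear axes from 0). MPC1, VDAC1 and TAGLN were highest in cow 489215 and lowest in cows 856 and 97, whereas SFXN5 and TPPP3 were higher in all 3 SF/SCL cows.

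Stromal and vascular markers complete the lists. All 6 fibroblast markers had a log2 fold change below 0, and 4 had an unadjusted limma p under 0.05, against 4.48% of all genes higher in LF/LCL. Without cow 489215 all 6 passed a limma adjusted p under 0.05, against 7.92% of all genes higher in LF/LCL in that fit. With all cows DESeq2 passed 2, LUM and COL1A1, against 2.66% of all genes in either direction. Their sums were 252265, 313954 and 301551 in LF/LCL and 120068, 127266 and 205424 in SF/SCL, with the most reads from COL1A2, with no gene at 0. These sums did not overlap, and in them cow 489215 lay between the other SF/SCL cows and LF/LCL. By gene, 3 of the 6 did not overlap, against 8.6% of all genes. For PDGFRA, DCN and THY1 cow 489215 lay within the LF/LCL range, and for LUM it was the lowest cow, at 3462. Of 5 endothelial markers found, 4 had a log2 fold change below 0 and 1, CDH5, had an unadjusted limma p under 0.05, against the same 4.48%. Without cow 489215 all 5 were below 0, and 1, CDH5, passed a limma adjusted p under 0.05, against 7.92% of all genes. They summed to 11744, 14554 and 11244 in LF/LCL and to 9839, 10161 and 13326 in SF/SCL, with the most reads from VWF. The part of these cell types in the results for the carriers was not tested.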

How the data were processed

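Isthmus RNA of 6 cows, 3 LF/LCL and 3 SF/SCL, was analysed, with 1 library per cow; grouping followed the sample labels, and the cow numbers pair no samples across groups. The authors trimmed and mapped the reads with TopHat2 2.0.8 and Bowtie2 2.1.0 to the bovine genome, counted uniquely mapped reads per gene with HTSeq 0.5.4p2 and divided the counts by DESeq 1.12.1 size factors. The deposited signal is therefore a normalized count per gene, not scaled for gene length; the strand setting of the counting is not given in the sources used here. Values were divided by the worth of 1 read in each library, and 100% came out whole within 0.002 of a read; the libraries held 23899117 to 34193164 counted reads. A count of 0 leaves up to 3 reads per library possible, which covers counting error only.

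Members were gene rows whose symbol begins with SLC25A and a number or is UCP1, UCP2 or UCP3. Genes with a mean above 5 and above the standard deviation over the 6 libraries were tested. The study's methods state these criteria too, but the set tested here is not the same as the study's. Both criteria together left 15387 genes for the main test, and the mean alone, an alternative, left 15922. The main test was limma 3.58.1 (R 4.3.3; linear model, empirical Bayes with trend and robust settings) on log2(value + 1), two-sided, with Benjamini-Hochberg adjustment over all genes tested and a threshold of 0.05. Fold changes are SF/SCL minus LF/LCL on that log scale, which understates changes of genes with few reads. Alternatives were edgeR 4.0.16 (quasi-likelihood, TMM) and DESeq2 1.42.0 on recovered reads, pseudocounts of 0.5 and 5, other filters, TMM rescaling, array weights and leaving out each cow. Scaling to the library total was added after seeing the data. Each tool was tested on simulated data, in which a larger share of the DESeq2 calls was false than of those by limma or edgeR.

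Values in every library are given for members with an unadjusted limma p under 0.05 or with groups that did not overlap, the 8 members with the highest mean, UCP1 to UCP3, and the ADP/ATP carriers SLC25A4, SLC25A5, SLC25A6 and SLC25A31. A library at least 3 times the next also qualified a member with a mean above 5, and no member met that rule. The same values are given for genes of the other mitochondrial lists with an unadjusted p under 0.05 and for VDAC1, VDAC2, MTCH1, MTCH2, MPC1 and MPC2. The rule asked for the 8 highest per kilobase, but lengths were not used here, so normalized counts were ranked. Other named genes were chosen after their values were seen. Members and lists were chosen with earlier results of these data known.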

Additional observations from a re-analysis of the deposited data

How the results depend on the processing

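The number of genes with an adjusted p under 0.05 was 0 with limma, 409 with DESeq2 and 4581 with array weights, and 0 to 2827 with a cow left out. Members with an adjusted p under 0.05 numbered 1 with DESeq2, 10 with array weights, against 29.8% of all genes, and 0 to 7 without a cow, against 0% to 18.2%; the upper values are those without cow 489215. At an unadjusted p under 0.05, members higher in LF/LCL numbered 2 with DESeq2, against 5.39% of all genes, 13 with array weights, against 21.3%, 0 with edgeR, with a pseudocount of 0.5 and with scaling to the library total, and 0 to 6 without a cow. Those higher in SF/SCL numbered 2 with DESeq2, against 6.1%, 7 with array weights, against 21.1%, and 1 to 4 without a cow. Over all genes, shares without a cow were 2.03% to 15.9% and 1.91% to 18%, and scaling to the library total gave 5.52% in favour of LF/LCL and 2.81% of SF/SCL. Groups did not overlap for 4 to 13 members higher in LF/LCL and 4 to 7 higher in SF/SCL with a cow left out, which leaves fewer cows to overlap; over all genes the shares were 10.4% to 24.9% and 11.4% to 27.1%. The median log2 fold change of the members was -0.07 to 0.19 without a cow, -0.07 with array weights and -0.01 with scaling to the library total. Array weights gave cow 489215 little weight and turned the log2 fold changes of SLC25A1 to -0.38, SLC25A11 to -0.23, SLC25A17 to -0.09, SLC25A3 to -0.35 and SLC25A39 to -0.24. Scaling to the library total, chosen after seeing the data, turned SLC25A11 to -0.05, SLC25A3 to -0.02 and SLC25A1 to -0.00, just below 0. With a cow left out they were -0.27 to 0.29 for SLC25A1, -0.34 to 0.30 for SLC25A11, -0.02 to 0.45 for SLC25A17, -0.40 to 0.33 for SLC25A3 and -0.21 to 0.35 for SLC25A39, the lowest being without cow 489215; SLC25A1 was also below 0, at -0.04, without cow 527. For the rest, the cause was not tested. The 14 tested members that the rule named for values in every library were followed through these alternatives. Elsewhere they kept their direction and side of the threshold in 186 cases and passed it in 10. Other members are not in these counts. Without cow 489215, some of those passed the threshold, as SLC25A35 and SLC25A37 did, or turned sign, as SLC25A33 did. Low depth limits SLC25A53, SLC25A48 and SLC25A45, which had 2 to 65 reads per library.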
